A study of Mus musculus with 6 samples.

Results

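Alternative 3′ splice sites that lie more than 12 bases apart made up 2274 of the 3282 alternative 3′ splice site events that the authors listed for mouse tibialis anterior muscle with and without Acin1 in the fibres. Each event joins 1 upstream exon to either of 2 acceptor sites. Use of the upstream acceptor gives a long exon and use of the downstream acceptor a short one. Members were the rows in which the long exon exceeded the short exon by more than 12 bases. The other 1008 events, with acceptors up to 12 bases apart, served as the comparison. The 2274 events fell in 1706 genes and held 2179 different pairs of acceptors, because 187 events shared their pair with another event that differed in the upstream exon. Of the genes, 1336 had a single event, and the most events in 1 gene were 14, in Gm20544.

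Every mouse carried HSA-Cre Tg/+, a Cre recombinase under the human skeletal actin promoter, which works in muscle fibres. The 3 control libraries had the Acin1 +/+ genotype and the 3 knockout libraries Acin1 F/F, with both alleles floxed, so that the controls also carried the transgene. Cells other than fibres keep their Acin1 in this model. Age and sex are not in the labels used here, and nothing in them ties each library to its own mouse, so every p-value rests on the spread of these libraries alone, which may be technical.

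A 3′ splice site is the end of an intron, an AG that usually follows a stretch rich in pyrimidines, which is bound by U2AF. Where 2 such sites compete, the segment between them is kept in or left out of the messenger RNA, and its length decides whether the reading frame is preserved. Acin1 encodes acinus, a nuclear protein that forms the ASAP complex with RNPS1 and SAP18 and is associated with the exon junction complex, which marks spliced messenger RNA. The comparison asks how losing Acin1 from the fibres changes the choice between distant acceptors.

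The last 30 bases of the segment between the acceptors are shown for 11 genes with a changed event, because they hold the AG of the downstream site and the bases just before it. They were read from GENCODE M21 transcripts (GRCm38) of the same gene, in the strand of the transcript, whose exon and intron lengths equal those of the event. The AG of each downstream acceptor is in capitals, and in Dmpk and Mmadhc 2 such sites fall within the stretch.
Popdc3: gaatttctgcattatatttccccctttcAG
Htra2: ctcctttgccatcccttctgatcgccttAG
Farsb: gctttacaagattgacgtccctgccaacAG
Mmadhc: tttcctatctcccAGgattttgttctttAG
Anapc5: tccctgggaatacagtcccttgttcaacAG
Ano5: catcttgcttctatgtggccttctttaaAG
Eif4g3: taaatagattctctcctctgcaacctccAG
Dmpk: gggtcacctgtcccttctctctccAGctAG
Golga4: atagcttatattcttttctttaatctccAG
Rpl22l1: tagttttgcattctttctgtttgaaaatAG
Art1: gtgctgatccctcctttcgaaactttccAG
The upstream sites are not shown, since the bases before them are intronic and were not read. A transcript with the long form was found for 2038 of the 2274 events, and in 2037 of these the segment ended in AG. For 542 of the tested events the 20 bases before the last 3 of the segment could be scored, and a median of 70% of them were C or T (quartiles 60% and 75%). In the 17 called events that could be scored the median was 75%, from 50% in Farsb to 90% in Dmpk.

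The acceptors lay 13 to 12751 bases apart, with a median of 56 and quartiles of 29 and 117.8 bases. The distance was a multiple of 3 in 911 of the 2274 distant events (40.1%), against 749 of the 1008 near events (74.3%). The share of multiples of 3 was 47.1% for distances from 13 to 30 bases, 37.6% from 31 to 100, 38.1% from there to 300 and 35.2% above 300. Of the 273 tested events whose segment lay inside a coding sequence with a readable frame, 169 (61.9%) kept the frame.

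**Figure D1:**
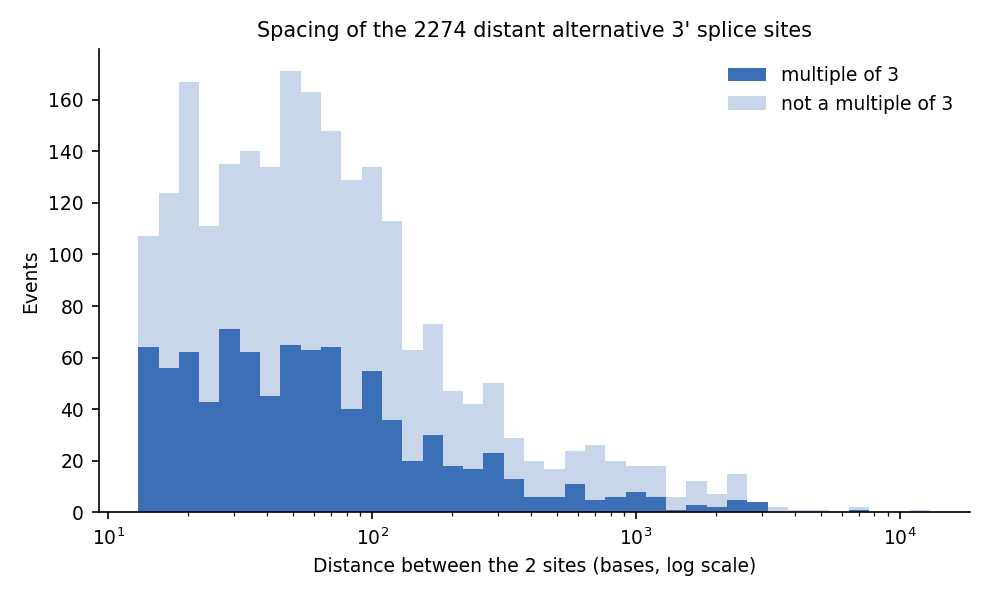
Histogram of the distance between both acceptors (bases, log scale) for the 2274 distant events, with events on the y axis and colours for distances that are or are not multiples of 3. The upper quartile lies at 117.8 bases with a long tail above it, and multiples of 3 make up 40.1% of all events.

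Use of the upstream site was the share of long-form junction reads after each form's reads were divided by its effective length, as rMATS defines it. Values are given for the control libraries first and then the knockout libraries, in the order of entry in the deposited cells, and as mean ± SD over the 3 libraries of a group. The deposited cells are headed sample 1 and sample 2, and sample 1 was read as control because its summed short-form reads equal the control reads of the CASH table in 97 of 594 events, against 10 of 613 for sample 2. All coordinates are those of the deposited files, in GRCm39. Long-form reads include those that run from the segment into the shared exon, which unspliced RNA also gives. Events entered the test with a mean of at least 20 junction reads per library and at least 10 reads of the less used form over all libraries. This left 723 of the 2274 events (31.8%), in 606 genes, beside 274 of the near events. Of those left out, 1084 had too few reads and 467 too few of the minor form. The distant events held 249862 to 309826 junction reads per control library and 326831 to 363137 per knockout library, and the tested events a median of 68.5 reads per library.

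Over the tested distant events the upstream site had a median use of 23.2% in control and 22.3% in knockout libraries. It was used under 10% in 262 events, between 10% and 90% in 322 and over 90% in 139. Among tested near events these numbers were 25, 189 and 60, with a median use of 62.9%. The longer the distance, the higher was the median control use of the upstream site, from 13% at 13 to 30 bases to 28.7%, 30.6% and 74.4% in the successive distance classes. Median use also went with the annotation. In 161 tested events the GENCODE transcripts with the long form were annotated for nonsense-mediated decay and those with the short form as coding, and the upstream site had a median use of 6.96%. In 49 events with the reverse annotation the median was 92.9%, and in 298 events with coding transcripts of both forms it was 36.1%.

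The typical event hardly differed between the genotypes. The median change of use, knockout minus control, was -0.06 percentage points over the 723 tested distant events and -0.09 over all 997 tested events. Use was lower in the knockout in 371 and higher in 352. In 72.9% of the distant events the group means lay within 5 points, and in 84 events (11.6%) they differed by at least 10 points, against 20 of the near events (7.30%). The median SD between libraries was 3.07 points in the control group and 2.93 in the knockout group. Pairs of control libraries differed by a median of 3.08 to 3.32 points, pairs of knockout libraries by 3.08 to 3.53, and pairs of 1 control and 1 knockout library by 3.30 to 3.88. Groups did not overlap in 125 of the 723 distant events (17.3%) and in 15.2% of all tested events, with 64 lower and 61 higher.

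In 22 distant events, in 19 genes, the choice of acceptor differed between the genotypes (limma on log2 of the ratio of long to short reads, Benjamini-Hochberg adjusted p under 0.05 over all 997 tested events, here "called"). The fit took the spread of every event from one trend over all events, so the libraries of a single event hardly enter its error. They were 22 of the 723 tested distant events. The background was 2.21% of all tested events, near and distant, and it holds these same 22 calls, since no near event was called. The upstream site was used less in the knockout in 18 of these events, in 15 genes (background 1.81%), and more in 4 events, in 4 genes (background 0.401%). Mast2, Popdc3, Spns2, Htra2 and Meg3 had the largest falls, and Tardbp and Eci2 the largest rises. None of the 274 near events was called by limma, where 18 had an unadjusted p under 0.05 and the lowest adjusted p was 0.106. The quasi-binomial model called 0 near events, limma without weights 1, and limma without the second control entry 1. Of the distant events, 99 had an unadjusted p under 0.05. The difference between distant and near events was not itself tested. The called events had acceptors 15 to 672 bases apart with a median of 94.5 bases, and 10 of the 22 distances were multiples of 3, a share close to that of all tested distant events (296 of 723, 40.9%). Without the weights that carry each library's counting error, limma called 5 distant events, only 4 of them among these 22.

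**Figure D2:**
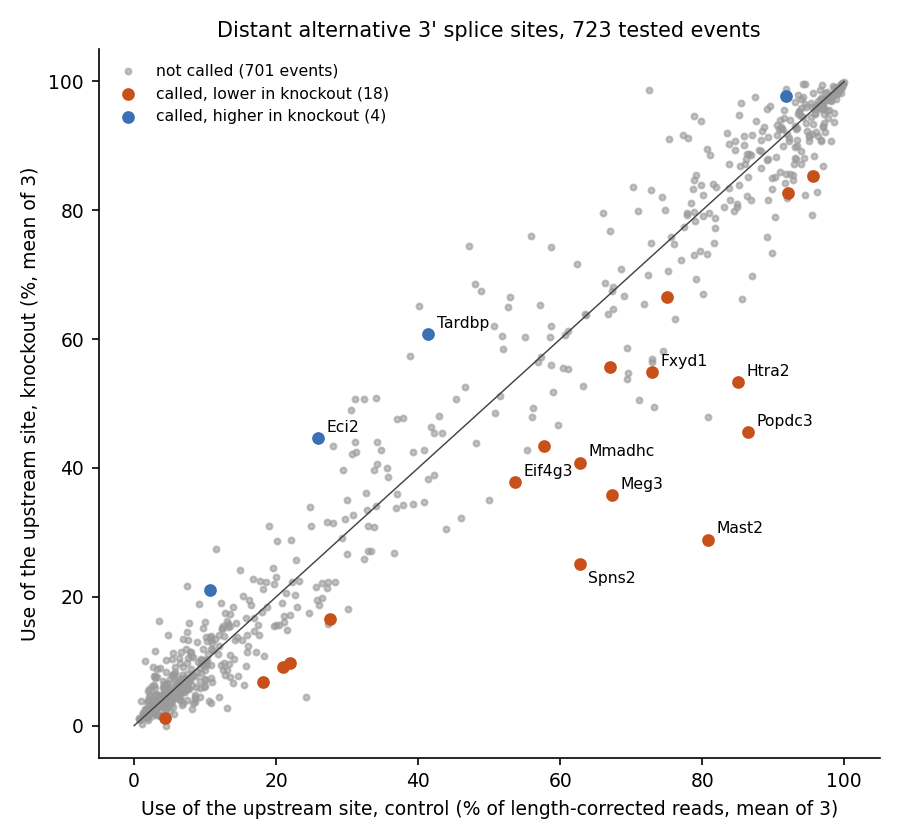
Mean use of the upstream site in the control libraries (x axis, %) and in the knockout libraries (y axis, %) for the 723 tested distant events, with the line of equal use. The 18 events called lower lie below the line and reach -52.0 points in Mast2, and the 4 called higher lie above it.

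The gene targeted by Cre was itself a member. In Acin1 (chr14:54884025-54884060, minus strand, GRCm39, 36 bases in the coding sequence) the long form had 54, 51 and 43 reads in control and 7, 7 and 6 in knockout libraries. The short form had 10, 12 and 7 reads, and 2, 1 and 4 reads. All knockout libraries lay far below all control libraries in reads of this junction, at 9 ± 1 against 59 ± 7.81 (SD, n = 3 each), or 15.2% of the control reads. An exact two-sided permutation test gave p = 0.1, the smallest that 3 libraries against 3 allow. The share of the long form was 79.1% ± 3.12 in the control group and 69.3% ± 15.8 in the knockout group (limma adjusted p = 0.661), with overlapping libraries. Over the whole gene the scaled reads (reads divided by a factor for each library, from the deposited log2 values) were 1495 ± 74.3 and 1196 ± 0.775, a log2 change of -0.32 (SE 0.0709, limma adjusted p = 0.0266). Leaving out control replicate 1, 2 or 3 raised that adjusted p to 0.0831, 0.0973 or 0.0587, and leaving out knockout replicate 7 to 0.0820.

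Mast2 encodes a microtubule-associated serine/threonine kinase, and its upstream acceptor (chr4:116225982-116226127, minus strand, 146 bases) was used in 85.7%, 80.0% and 76.7% of the control reads and in 23.1%, 23.5% and 40% of the knockout reads. The groups were far apart, with the third knockout library nearest to the controls. The log2 ratio changed by -3.21 (SE 0.557, limma adjusted p = 1.03e-06), on 34.67 reads per library, of which the knockout libraries held 54.1% of the control number. No GENCODE transcript of Mast2 matched either form of this event. Popdc3 encodes a cAMP-binding Popeye domain protein of striated muscle membranes. Its long form, with a 52-base coding segment (chr10:45192527-45192578, plus strand), had 136, 109 and 111 reads in control and 102, 92 and 80 in knockout libraries, while the short form had 9, 11 and 16, and 57, 69 and 93. Short-form reads were thus several times higher in every knockout library, and use of the upstream site went from 86.5% ± 4.43 to 45.6% ± 9.01 (log2 ratio change -2.88, SE 0.306, limma adjusted p = 2.34e-18). Leaving out the segment from the matched long-form transcript moves the first stop codon 308 bases ahead of the annotated stop. GENCODE nevertheless annotates the matched transcripts of both forms as coding.

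Dmpk encodes the myotonic dystrophy protein kinase, whose human gene carries the repeat that expands in that disease. Its called events share the upstream donor and the long form, and their downstream sites lie 4 bases apart, as printed above. For the downstream site at 125 bases (segment chr7:18826343-18826467, plus strand), use of the upstream site was 16.9%, 19.5% and 18.1% in control and 5.54%, 6.90% and 7.92% in knockout libraries. For the site at 129 bases it was 21.1%, 23.03% and 21.9%, and 7.30%, 9.88% and 11.8%. Neither pair of groups overlapped (limma adjusted p = 4.60e-25 and 3.90e-19), and since both events count nearly the same long-form reads they are not independent. Use of 1 of these downstream sites against the other did not pass the test, at 54.9% ± 0.902 and 55.2% ± 0.430 (limma adjusted p = 0.988). From another upstream exon, whose donor lies farther from the acceptors, the same pairs were used at 92.4% ± 2.39 and 94.1% ± 5.29 (125 bases, limma adjusted p = 0.998) and at 89.2% ± 5.15 and 91.3% ± 4.61 (129 bases, 0.880). These rest on few short-form reads: 3, 3 and 5 in control and 3, 3 and 0 in knockout (125 bases), and 9, 4 and 4, and 4, 5 and 2 (129 bases). Long-form reads from the segment into the shared exon do not depend on the upstream exon, so the choice from this exon is poorly measured. At 125 bases, the called event had 127, 136 and 121 long-form reads in control and 61, 87 and 100 in knockout libraries. From the other exon they were 86, 96 and 87, and 53, 73 and 81. Reads that do not depend on the exon may thus make up much of the long form of the called events too. The GENCODE transcript with the long form at 125 bases is annotated for nonsense-mediated decay. At 129 bases both forms matched only transcripts annotated as retained introns.

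Fxyd1 encodes phospholemman, a regulator of the sodium pump. Its called events share 1 pair of acceptors 64 bases apart (chr7:30753796-30753859, minus strand) and differ in the upstream exon. From the exon farther upstream, use was 70.3%, 73.9% and 74.5% in control and 52.5%, 52.6% and 59.7% in knockout libraries (log2 ratio change -1.12, SE 0.158, limma adjusted p = 2.84e-10). From the nearer exon it was 69.0%, 69.7% and 62.3%, and 55.5%, 52.3% and 59.1% (limma adjusted p = 0.000332). All knockout libraries were below all control libraries in both. The long-form reads of both events are nearly the same, so most may run from the segment into the shared exon. Such reads do not depend on the upstream exon, and the choice from either exon is therefore poorly measured. No GENCODE transcript matched the long form of these events. These shares cover only the junctions of the called events. For the same pair, the authors' deposited table of CASH results gave 647 inclusion and 7856 exclusion reads in control and 178 and 7023 in knockout. By those pooled reads the upstream site was the less used one in both groups. Another Fxyd1 event, with acceptors 35 bases apart, was used at 89.3% ± 0.756 and 88.0% ± 0.490 (limma adjusted p = 0.162). Ano5 encodes a membrane protein of the anoctamin family that is mutated in a human limb-girdle muscular dystrophy. Use of its upstream site (chr7:51226252-51226359, plus strand, 108 bases, 36 codons in frame) was 63.6%, 50.8% and 58.9%, and 43.3%, 43.4% and 43.5%. The groups did not overlap, but the call (log2 ratio change -0.82, SE 0.235, limma adjusted p = 0.0222) was lost when any library except the second control entry was left out, at adjusted p from 0.0670 to 0.358. Spns2 encodes a transporter of sphingosine 1-phosphate, and use of its upstream site (chr11:72344427-72344540, minus strand, 114 bases) was 47.7%, 66.0% and 74.7%, and 14.3%, 29.8% and 31.1% (log2 ratio change -2.34, SE 0.400, limma adjusted p = 7.23e-07). Its junction reads in the knockout libraries were 62.5% of the control number.

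**Figure D3:**
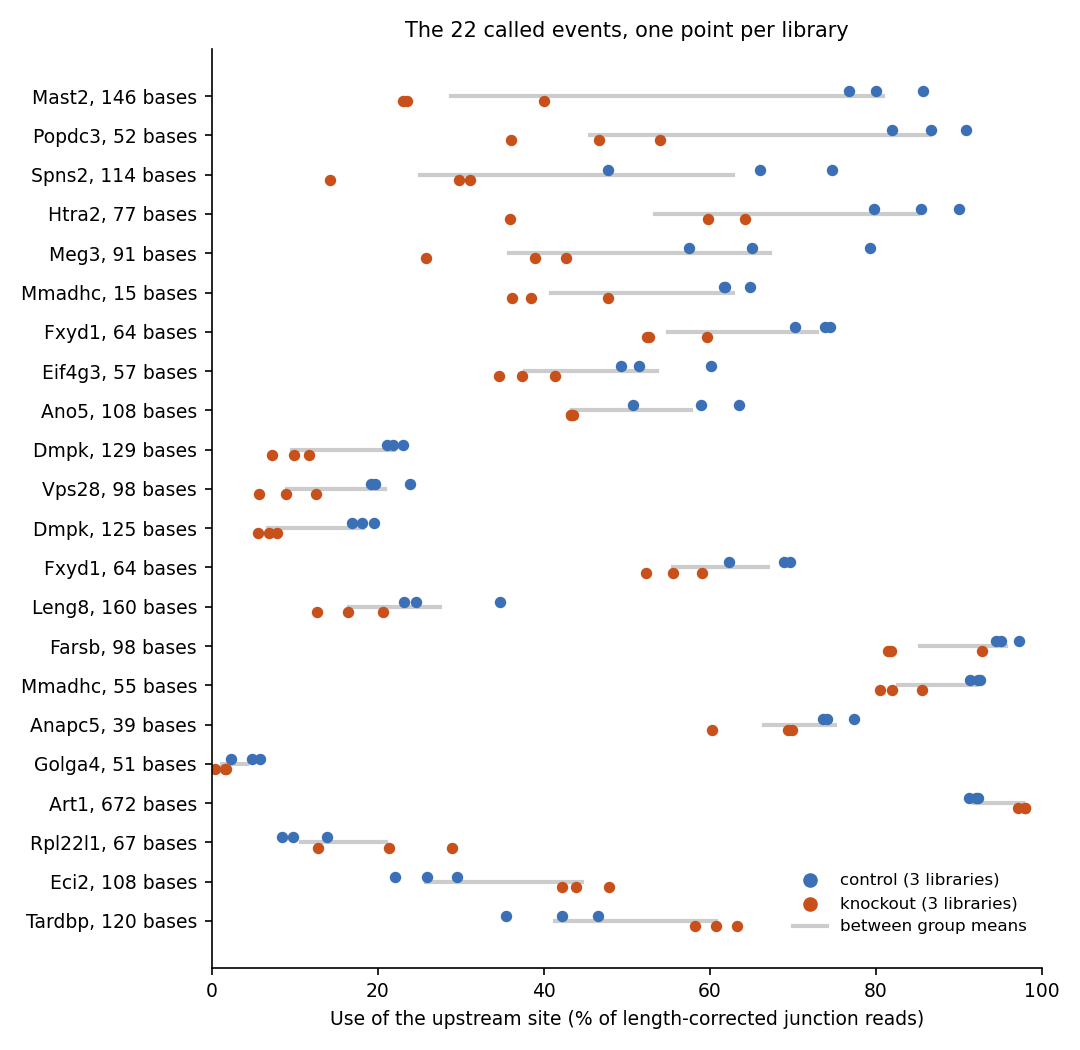
Use of the upstream site (x axis, % of length-corrected junction reads) in each of the 3 control and 3 knockout libraries for the 22 called events, ordered from the largest fall to the largest rise, with a bar between the group means. The groups overlap in Rpl22l1 and in no other called event.

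Htra2 encodes a serine protease of the mitochondrial intermembrane space. Its 77-base coding segment (chr6:83029708-83029784, minus strand) was kept in 85.4%, 90% and 79.8% of the control reads and in 36.0%, 64.3% and 59.8% of the knockout reads, on 47.83 reads per library. The first knockout library was lowest, and without it the call (log2 ratio change -2.28, SE 0.524, limma adjusted p = 0.000984) was lost (0.0996). GENCODE annotates the short form for nonsense-mediated decay, and leaving out the segment moves the first stop codon 250 bases ahead. Mmadhc encodes a protein of intracellular cobalamin (vitamin B12) handling, and its 3 acceptors form 3 events. The most downstream site had 29, 34 and 23 reads in control and 75, 81 and 55 in knockout libraries. Set against it, the most upstream site, 55 bases away (chr2:50182911-50182965, minus strand), went from 92.1% ± 0.672 to 82.7% ± 2.65 (limma adjusted p = 1.13e-07), and the middle site, 15 bases away, from 62.8% ± 1.84 to 40.8% ± 6.14 (0.000110). The upstream site against the middle one was used at 96.1% ± 0.860 and 96.0% ± 0.486 (0.979). Reads of the downstream site were higher in every knockout library than in any control library, and the ratio of the other sites did not pass the test. Eci2 encodes an enoyl-CoA isomerase of fatty acid breakdown, and the use of its upstream site (chr13:35177204-35177311, minus strand, 108 bases in the 5′ UTR) was 25.98%, 22.1% and 29.6% in control and 42.2%, 43.9% and 47.9% in knockout libraries. The knockout libraries were all higher (log2 ratio change 1.20, SE 0.297, limma adjusted p = 0.00350), and the call was lost without the second control entry (0.0548).

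**Figure D4:**
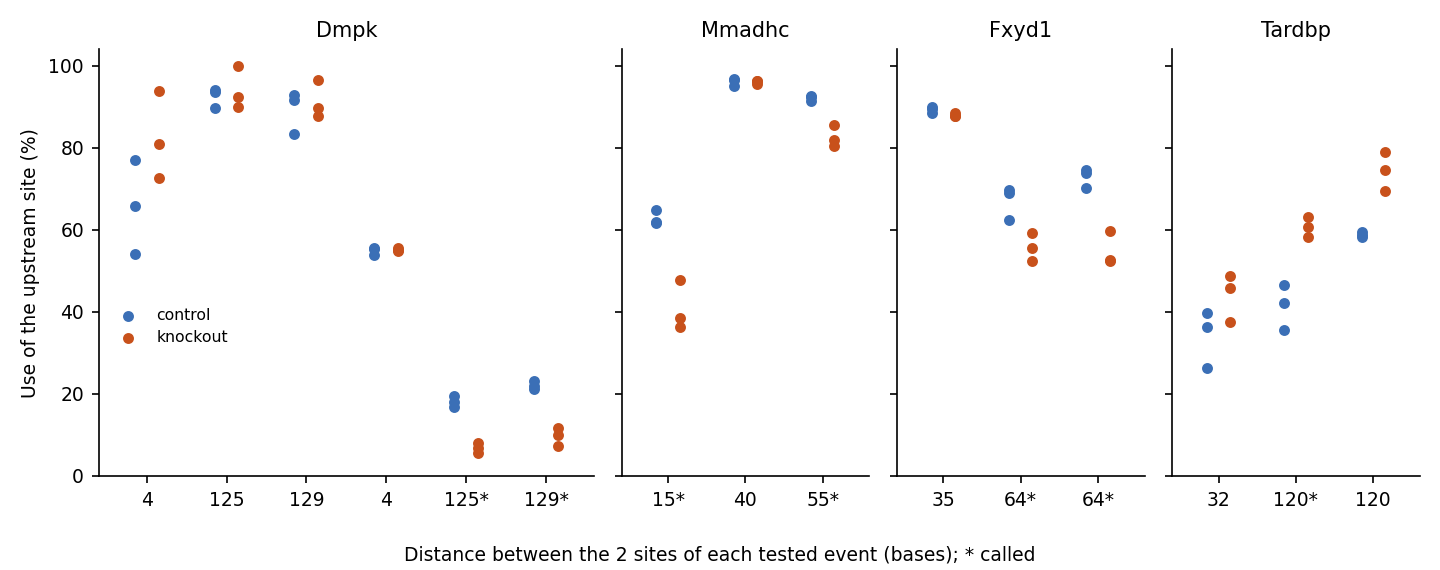
Use of the upstream site (y axis, %) in the 3 control and 3 knockout libraries for every tested alternative 3′ splice site event of Dmpk, Mmadhc, Fxyd1 and Tardbp, near events included, labelled by the distance between both sites. Events with an asterisk were called. In Dmpk the called events lie near 20% in control and below 12% in knockout. The same acceptors from another upstream exon lie near 90% in both groups, on at most 9 short-form reads per library.

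Tardbp encodes the RNA-binding protein TDP-43, which is known to act on its own transcript through the 3′ end. Its called event (chr4:148702163-148702282, minus strand, 120 bases) had 54, 44 and 54 long-form reads in control and 141, 120 and 133 in knockout libraries, whereas the short form had 37, 40 and 31, and 41, 43 and 43. Long-form reads were higher in every knockout library and short-form reads differed little, so that use rose from 41.4% ± 5.57 to 60.7% ± 2.49 (log2 ratio change 1.14, SE 0.254, limma adjusted p = 0.000591, or 0.0548 without the second control entry). The same acceptors with an upstream exon of another length were at 58.8% ± 0.663 and 74.3% ± 4.71 (0.0990, or 0.0480 with an offset of 1). Both events count nearly the same long-form reads, so they are not independent. Set against the downstream site and short-form reads of the called event, a site 32 bases away was used at 34.2% ± 6.91 and 44.0% ± 5.88. That event was not called (limma adjusted p = 0.417). All the GENCODE transcripts that matched the called event are annotated for nonsense-mediated decay, and the scaled reads of the gene were 2051 ± 68.2 and 2000 ± 76.4 (limma adjusted p = 0.768).

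Rpl22l1 encodes a paralogue of a ribosomal protein. The upstream site of its event (chr3:28860819-28860885, plus strand, 67 bases) was used in 9.78%, 13.9% and 8.52% of the control reads and in 12.8%, 21.3% and 29.0% of the knockout reads. The groups overlapped, and the call (log2 ratio change 1.17, limma adjusted p = 0.0113) was lost without the first control entry (0.143), the third control entry (0.133) or the third knockout entry (0.434). GENCODE annotates the long form of Rpl22l1 for nonsense-mediated decay. Eif4g3 encodes a scaffold of translation initiation, and its 57-base segment (chr4:137907801-137907857, plus strand, 19 codons in frame) was kept in 53.7% ± 5.74 and 37.7% ± 3.38 (limma adjusted p = 0.0169). That call was lost without the second (0.0548) or the third (0.196) control entry or the first (0.0996) or second (0.0776) knockout entry. Farsb encodes a subunit of the phenylalanine tRNA synthetase. Its 98-base coding segment (chr1:78456651-78456748, minus strand) was kept in 95.1%, 94.5% and 97.3%, and in 81.8%, 81.4% and 92.8%, so the third knockout library was closest to the controls. The short form, annotated for nonsense-mediated decay, had 5, 5 and 2 reads, and 18, 18 and 7 reads. The call (limma adjusted p = 0.0117) was lost when any library except the third knockout entry was left out (0.0647 to 0.104).

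Meg3, a maternally expressed long noncoding RNA, had an upstream site (chr12:109515635-109515725, plus strand, 91 bases) used at 67.3% ± 11.03 in control and 35.8% ± 8.87 in knockout (limma adjusted p = 0.00602, on 37.83 reads per library). The call was lost without the first control entry (0.222) or the third knockout entry (0.0959). No GENCODE transcript of Meg3 matched either form of this event. Leng8 had its upstream site (chr7:4146258-4146417, plus strand, 160 bases) used at 27.5% ± 6.29 and 16.6% ± 3.99 (0.0113), lost without the third control entry (0.259) or the first (0.150) or second (0.0618) knockout entry. GENCODE annotates the long form of Leng8 only as a retained intron and the short form as coding.

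Art1 encodes an ADP-ribosyltransferase anchored at the muscle cell surface. Its downstream acceptor, 672 bases beyond the upstream one with the segment between them in the coding sequence (chr7:101755874-101756545, plus strand, 224 codons in frame), had 84, 75 and 68 reads in control and 21, 19 and 18 in knockout libraries. Long-form reads were 1945, 1803 and 1413, and 1415, 1833 and 1790. All knockout libraries had fewer short-form reads than any control library, and use of the upstream site rose from 91.9% ± 0.573 to 97.7% ± 0.510 (log2 ratio change 1.89, SE 0.231, limma adjusted p = 1.13e-13). Although the segment keeps the frame, GENCODE annotates the short form of Art1 for nonsense-mediated decay. Vps28 encodes a subunit of the ESCRT-I sorting complex, and its upstream site (chr15:76508821-76508918, minus strand, 98 bases in the 5′ UTR) was used in 19.2%, 19.7% and 23.8%, and in 12.6%, 8.96% and 5.71% (log2 ratio change -1.34, SE 0.261, limma adjusted p = 3.06e-05). These groups did not overlap. Anapc5, Golga4, both called events of Mmadhc, the 129-base event of Dmpk and the Fxyd1 event from the farther exon fell outside the rule for named events and were named after their values were seen. Anapc5 encodes a subunit of the anaphase-promoting complex, and its 39-base segment (chr5:122938657-122938695, minus strand, 13 codons in frame) was kept in 75.1% ± 2.02 and 66.5% ± 5.40 (6.35e-06, or 0.0883 without the third knockout entry). Set against the same downstream site and short-form reads, an Anapc5 site 15 bases away was used at 21.1% and 16.1% and was not called (limma adjusted p = 0.332). Golga4 encodes a golgin of the Golgi apparatus. Its upstream site (chr9:118395976-118396026, plus strand, 51 bases) was used in 4.30% ± 1.81 and 1.26% ± 0.753 (0.00350), lost without the first control (0.109) or first knockout entry (0.0507). GENCODE annotates the long form of Golga4 for nonsense-mediated decay.

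In 6 of the 19 genes other distant events were tested and not called, 10 in all. Their group means differed by 0.165 to 15.5 points with a median of 1.88, and 3 of them had an unadjusted p under 0.05. Of the 22 called events, 11 stayed called in each of the 6 fits that left out 1 library. These were the events of Popdc3, Mast2, Spns2, Vps28 and Art1 and both called events each of Dmpk, Fxyd1 and Mmadhc.

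Grouped by the function of the gene, few events of any list were called, against 2.21% of all tested events. An unadjusted p under 0.05 was found in 117 of all 997 tested events. Among the named list events that limma did not call, the authors' deposited table of rMATS results gave an FDR under 0.05 for Myo18b, Mrps9, Egfl7 and the 40-base event of Mlxipl. Among sarcomere and Z-disc genes, 0 of 9 tested events were called, 0 had an unadjusted p under 0.05 and the median change was -0.09 points. In Myot the upstream site was used at 67.4% ± 0.397 and 68.0% ± 0.216 (limma adjusted p = 0.828), in Igfn1 at 97.2% ± 2.58 and 97.2% ± 1.37 (0.667) and in Tnnt1, on few reads, at 11.99% ± 12.1 and 4.43% ± 3.88 (0.767). Igfn1, a protein of the Z-disc region, was nevertheless higher at the gene level, with scaled reads of 1850 ± 1010 and 17483 ± 8200 (log2 change 3.35, limma adjusted p = 0.00622). Among genes of the membrane complex and cytoskeleton 0 of 13 were called, with 1 at an unadjusted p under 0.05 and a median change of -0.90 points. In Myo18b, a myosin-like protein, the use was 5.42% ± 1.46 and 11.3% ± 0.383 without overlap (0.106), and in Ank3, an ankyrin, 71.8% ± 4.44 and 65.4% ± 1.25 (0.670). Arhgef1 was at 62.3% ± 16.7 and 71.6% ± 4.26 (0.676). Among calcium handling and excitation genes 1 of 2 was called, Ano5, and the chloride transporter gene Clcn7 was at 3.96% ± 1.16 and 3.74% ± 2.33 (0.994).

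The list of splicing and RNA-binding proteins was larger, with 43 tested events, of which 1 rose, in Tardbp. Its median change was 0.896 points. Pcbp4 was at 8.52% ± 3.59 and 4.76% ± 0.658 (limma adjusted p = 0.306). Of 37 events in genes of the ribosome and translation 1 fell, in Eif4g3, and 1 rose, in Rpl22l1, with a median change of -0.13 points. The mitochondrial ribosomal gene Mrps9 had 2, 2 and 1 long-form reads and 18, 6 and 7 (0.175). Of 28 events in genes of mitochondria and energy metabolism 1 rose, in Eci2, with a median change of -0.03 points. In Cox5b, a subunit of cytochrome oxidase, the use was 2.54% ± 0.0707 and 2.12% ± 0.461 (0.336, or 0.00523 without the first knockout entry), and in Esrra, a nuclear receptor of energy metabolism, 9.98% ± 1.96 and 6.11% ± 2.30 (0.133, or 0.0148 without the first knockout entry). Of 36 events in genes of protein folding and degradation 0 were called, with 1 at an unadjusted p under 0.05 and a median change of -0.41 points. Ube4a was at 78.0% ± 4.84 and 91.2% ± 4.81 (0.582), Bag6 at 97.9% ± 0.896 and 95.6% ± 0.211 (0.562) and Psma7 at 1.99% ± 1.48 and 0.879% ± 0.492 (0.336).

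Of 26 events in genes of chromatin and transcription 0 were called, with 6 at an unadjusted p under 0.05 and a median change of 2.20 points. Over all 136 distant events of this list, tested or not, the authors' deposited table of rMATS results gave 3 lower and 5 higher at an FDR under 0.05. Mlxipl, a glucose-responsive transcription factor, had its upstream sites at 9.19% ± 2.97 and 18.8% ± 5.87 (limma adjusted p = 0.0837, but 0.0260 without the second knockout entry and 0.0480 with an offset of 1) and at 7.74% ± 3.25 and 15.98% ± 5.24 (0.144). Mef2c, a myogenic transcription factor, was at 45.3% ± 1.19 and 50.6% ± 2.34 without overlap (0.190). Of 4 events in endothelial marker genes 0 were called, with 2 at an unadjusted p under 0.05. Egfl7 was at 2.74% ± 0.847 and 7.69% ± 5.81 (0.0527, but 0.0183 and 0.0471 without the first or second knockout entry, 0.0352 with an offset of 1, 0.0404 with at least 50 reads and 0.0437 without the trend), Eng at 3.997% ± 1.42 and 5.93% ± 2.61 (0.661) and Robo4 at 72.9% ± 10.5 and 56.8% ± 30.9 (0.133, or 0.0469 without the first knockout entry). The 3 tested events of the fibroblast markers were all in Fn1, shared acceptors, and moved by -2.44 to -6.69 points (0.331 to 0.977), 2 of them with an unadjusted p under 0.05. The quasi-binomial model called 0 events in each of these lists without a call. Smooth muscle, Schwann cell and macrophage markers had 1 event each and none tested.

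None of the tested members among the 6 with most reads was called, and apart from Myot above, their use lay near 0% or 100%, where it has little room to differ. In Tnni2, the fast troponin I, a site 39 bases upstream was used in 2.64% ± 0.183 and 2.56% ± 0.111 of reads (limma adjusted p = 0.878). The remaining pair of Tnni2 events had at most 1 short-form read in any library and were not tested. In Tpm2, a tropomyosin, the upstream site had 99.7% ± 0.0206 and 99.7% ± 0.0357 (0.866), and in Hspa8, a chaperone, 99.95% ± 0.0145 and 99.95% ± 0.0463 (0.978).

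The precision followed the reads. For 275 tested events with 20 to 49 reads per library the median SD of the control libraries was 5.51 points and 3 were called. For 311 events with at least 50 and under 200 reads it was 2.74 points with 11 called, and for 137 events with 200 or more reads 0.748 points with 8 called.

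**Figure D5:**
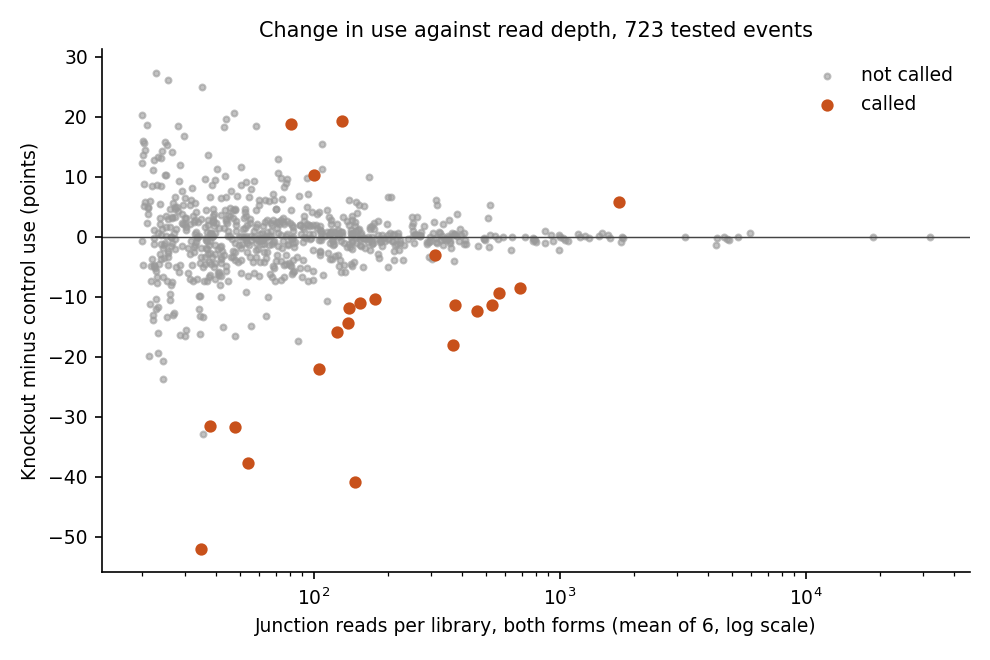
Change in use of the upstream site, knockout minus control (y axis, percentage points), against the mean junction reads per library (x axis, log scale) for the 723 tested events. The scatter narrows as reads increase, and the called events lie at its edges.

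Around the limit of 12 bases, 86 events lay 10 to 12 bases apart and 107 lay 13 to 15 bases apart. Of these, 25 and 26 were tested, with changes from -14.3 to 8.12 points and from -22.0 to 15.8 points. Their median control use was 26.7% and 9.95%.

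At the gene level, 95 of the 606 genes with a tested distant event were called for expression (15.7%, against 11.3% of all 14619 genes), 40 lower and 55 higher. Without single libraries this count lay between 22 and 87. The 606 genes had passed the read minimum of the event test, whereas the 14619 genes had not and were not matched to them for expression. Whether the shares differ for that reason was not tested. Among the 19 genes with a called event, Popdc3, Dmpk, Leng8 and Meg3 were higher and Rpl22l1 was lower. Popdc3 had scaled reads of 915 ± 112 and 1441 ± 108 (log2 change 0.66, SE 0.103, limma adjusted p = 0.00913) and kept this call without any single library. Dmpk had 8613 ± 640 and 11536 ± 177 (log2 change 0.42, SE 0.0807, 0.0166), lost without control replicate 1 (0.0569) or 2 (0.0538) or knockout replicate 7 (0.0613). Leng8 (log2 change 0.31, 0.0290) lost the call without any control replicate or knockout replicate 7 (0.0643 to 0.107). Meg3 (log2 change 0.40, 0.0470) and Rpl22l1 (log2 change -0.44, 0.0480) lost it without any library except knockout replicate 5 (0.0664 to 0.145 and 0.0715 to 0.151). Mast2 (log2 change -0.15, 0.354), Htra2 (-0.11, 0.481) and Art1 (-0.24, 0.0686) did not pass.

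Muscle fibre markers were present in all libraries, with summed scaled reads of 2827819 to 3053543 in control and 2558946 to 3046889 in knockout and 0 of 8 called. Markers of other cells moved with the genotype. Endothelial markers were called lower in 4 of 6, with sums of 9664 to 10706 and 6750 to 8692, smooth muscle and pericyte markers in 3 of 6 (13506 to 14384 and 9318 to 11613) and Schwann cell markers in 3 of 5 (995 to 1402 and 639 to 796). Of 6 fibroblast markers (16515 to 42057 and 10744 to 28107), 6 macrophage markers (534 to 823 and 444 to 1177) and 4 satellite cell markers (514 to 546 and 439 to 470), 0 were called by limma with or without robust fitting. Of the fibroblast, macrophage, satellite cell and fibre markers, 1 macrophage marker had an unadjusted p under 0.05. No listed marker was at 0 in any library. In whole muscle, fewer cells of a type and less RNA per cell cannot be told apart, and the part of these cells in the change of any event was not tested.

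In the authors' deposited table of rMATS results, 74 of the 2274 distant events (3.25%) and 18 of the near events (1.79%) had an FDR under 0.05, against 2.80% of all 3282 events. Of the 74 events, the authors' deposited table gave less use of the upstream site in the knockout for 44 and more for 30. It listed 21 of the 22 called events among them, and Ano5 at an FDR of 0.0595. Of the 74, 45 had enough reads for the limma test, 28 lower and 17 higher. The other 29 had 2.17 to 39.3 reads per library with a median of 7.5. In 1 such event the authors' deposited table gave Zfp783 an FDR of 3.16e-08 on 3.667 reads per library.

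The authors' deposited table of CASH results, from another splicing program, held 1373 of the distant events and 14 of the 22 called events, which rest on 13 of its entries since both Fxyd1 events share 1. All 14 had the same sign, as had 946 of the 1194 alternative 3′ splice site events that the authors' deposited table shares and that differed between groups in both, and the tables share libraries, so this is no independent check. Its knockout reads equalled the first 2 knockout entries added together in 138 of 613 events and all 3 in 1, and whether 1 knockout library was left out of it is not stated. By the FDR of the authors' deposited table only Dmpk among the called genes was below 0.05 (0.000540, with 132 inclusion and 746 exclusion reads in control and 22 and 928 in knockout). The authors' deposited table gave 0.0586 for Fxyd1, 0.0634 for Popdc3 and 0.0697 for Mast2.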

How the data were processed

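Per the labels, libraries were made with a directional kit from 0.3 µg of total RNA of tibialis anterior muscle. Tools in the submitters' processing notes, without roles or settings, are STAR 2.7.9a, RSEM 1.3.3, Trimmomatic 0.39 and FastQC 12.0, and the build is GRCm39. Per the file headers, the deposited rMATS sheet gives junction reads of each form for 3 libraries per cell, effective lengths and a p-value and FDR per event. The CASH table deposited by the authors gives pooled junction reads and p-values. Version and annotation of both are not given in the sources used here. The rMATS groups are headed sample 1 and sample 2. For events with at least 20 short-form reads, the CASH control reads equalled the sum over sample 1 in 97 of 594 events and over sample 2 in 10 of 613, and the CASH knockout reads matched entries 1 and 2 of sample 2, added, in 138 of 613, so sample 1 was read as control. Libraries within a cell are named by the order of entry, since entries could not be tied to replicate numbers. The deposited gene table holds log2 values with a minimum of log2 4, and scaled reads are 2 raised to the value, minus 4.

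Use of the long form was recomputed from the reads and effective lengths (99 bases for the short form, 100 to 198 for the long form) and differed from the deposited shares by at most 0.0005. The log2 ratio of long to short reads, each plus 0.5, was tested with limma 3.58.1 (R 4.3.3), with weights from the counting error, a trend on reads and no covariates. The prior degrees of freedom were infinite, so that one trend of the spread was used for all events and the libraries of 1 event hardly weigh in its error. Gene values were tested with limma with a trend. The scripts were tested on simulated data. GENCODE M21 transcripts (GRCm38) were matched by exon and intron lengths within the gene, for 1814 of the 2274 events in both forms.

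The members and gene lists were chosen with earlier results of these data known. Events were named by rule: called, not overlapping, 1 per gene, up to 12 per direction; then up to 3 per list by adjusted p, the 6 with most reads, and Acin1. Counting intervals were not used, since all shares come from replicated libraries. Skipped exons, retained introns and other event types were not analysed here.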

Additional observations from a re-analysis of the deposited data

How the results depend on the processing

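Of the 22 called distant events, 2 were tested and called under all 17 alternatives (Popdc3 and Art1). The 125-base event of Dmpk and the event of Mast2 were called in every alternative that tested them, which leaves out the fit with 1 event per gene for both and the minimum of 50 reads for Mast2. Without weights 5 distant events were called, only 4 of them among the 22, and with only the event of each gene that had most reads, 13 of 581. Other offsets, read minimums, trend settings, robust fitting and the quasi-binomial model called 16 to 27 events, all with more falls than rises, and no called event reversed. Leaving out 1 library gave 18 to 21 calls, of which 16 to 18 were among the 22. The median change over tested distant events stayed between -0.18 and -0.02 points under all alternatives, and between -0.18 and -0.05 when 1 library was left out. The count of 95 genes called for expression fell to 22 without the trend and lay between 22 and 87 when 1 library was left out; it was 98 with robust fitting and 100 without the 25% of genes with the lowest values. No paired analysis was possible because control and knockout libraries share no replicate number. Of the 2274 events 1551 were not tested, 1084 for too few reads and 467 for too few of the minor form.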
